A study of Mus musculus with 36 samples.

Results

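Type I interferon-stimulated genes are the antiviral and signalling genes that a cell switches on when interferon alpha or beta binds its receptor. A list of 39 of them was followed here by symbol, out of 34829 genes measured in mouse liver. The members were the IFIT, MX and OAS families, the ISG15 system, the viperin locus, the nucleic acid sensors, 3 signalling factors, PARP9, DTX3L and PARP14, and a set of membrane and other effectors. The list was taken by name, but it was chosen with earlier results of these data known. Of the 39, 37 reached a mean signal of 5 across the libraries and were tested. Oas3 and Ifi27l2a did not reach that level. The mean runs over all libraries, those of 4 h after LPS included, where most members were high. Oas2 and Oas1g reached it only with those libraries, so their results at 4 h are not independent of the filter.

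The livers came from C57BL6/J mice, a standard inbred laboratory strain with no engineered allele named in the labels, housed at 22 °C or at 30 °C and given LPS (lipopolysaccharide, from the outer membrane of Gram-negative bacteria). Livers were taken at 0 h (4 samples at 22 °C and 5 at 30 °C), 4 h (4 and 4), 12 h (5 and 4) and 24 h (5 and 5). The sources used here give no age or sex of the mice and no dose of LPS. No later group without LPS is named, so a change since 0 h covers everything that changed over that time. Nothing in the labels ties each sample to an animal of its own, so a p-value covers only the spread seen among the samples, and that spread may be technical. RNA was measured by a modified CEL-Seq2 protocol, which primes at the poly(A) tail and reads the 3' ends of transcripts, from total RNA of whole liver.

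Values are the deposited signal, in scaled reads per base. The libraries held 557000 to 2744000 estimated reads (median 1009000). In each library the commonest low value was taken as 1 read for every gene. By this estimate 3 reads stood for a signal of 1.33 to 5.05, depending on the library. The level is approximate for a single gene. Ifit2, for instance, was 0.715 in the 22 °C 0 h replicate 1, where 1 read was taken as 1.23. Differences are given as log2(signal + 1) ± SE from limma, with Benjamini-Hochberg adjusted p-values over all 8702 tested genes. This scale understates the change of genes with low values. The 6 hepatocyte markers of the check list (Alb, Apoa1, Ttr, Serpina1c, Cps1 and Apob) were all tested, and their summed signal was 24351 to 40216 at 0 h and at least 10587 in every library. In bulk liver RNA, fewer cells of a type and less RNA per cell cannot be told apart.

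As background, LPS is sensed by TLR4 with its co-receptor CD14. A branch of TLR4 signalling runs through the adaptor TRIF and the kinase TBK1 to the transcription factor IRF3 and to interferon beta. Interferon alpha and beta bind the receptor IFNAR1-IFNAR2, and the kinases JAK1 and TYK2 then start a phosphorylation signal. STAT2 and IRF9 act in the complex ISGF3, which binds the interferon-stimulated response element (ISRE) in front of antiviral genes. USP18 and the SOCS proteins limit the signal.

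The ISRE itself can be read in front of several members. RefSeq promoter windows on GRCm38.p6, from 250 bases before to 50 after a start site, matched 28 of the 39 members. The 11 members with no window were Mx1, Mx2, Oas2, Usp18, Dhx58, Zbp1, Parp9, Parp14, Rtp4, Ifi27 and Ifi27l2a. The core ISRE letters, GAAA, any 2 bases and GAAA again, searched on both strands so that TTTC, any 2 bases and TTTC also counts, were present in 14 of the 28, against 3.99% of all 27025 genes with a window. The letters TTC, any 3 bases and GAA, the core of the gamma-activated site, were in 5 of the 28, against 9.55% of all genes. The motifs were chosen after the expression values were known, and a match is a description of the letters, not a measured binding site. The 7 stretches below run from 200 to 51 bases before the start and are printed on the strand of the gene, 5′ to 3′, with ISRE matches in capitals. They were picked after the values were seen, 6 to show where matches lie in genes with large rises or temperature differences and Xaf1 as a member with no match, so they are no sample of the list. Ifit2 and Cmpk2, which rose by more than Ifit1 at 22 °C, have windows with no match. The stretches are Ifit1 (chr19:34640689-34640838, plus strand), Ifit3 (chr19:34583329-34583478, plus strand), Ifit3b (chr19:34607757-34607906, plus strand), Isg15 (chr4:156200869-156201018, minus strand), Rsad2 (chr12:26456503-26456652, minus strand), Bst2 (chr8:71537523-71537672, minus strand) and Xaf1 (chr11:72301429-72301578, plus strand).
Ifit1: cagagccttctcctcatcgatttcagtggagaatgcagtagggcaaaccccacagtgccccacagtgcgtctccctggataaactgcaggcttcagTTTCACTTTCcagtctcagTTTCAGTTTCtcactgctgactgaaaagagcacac
Ifit3: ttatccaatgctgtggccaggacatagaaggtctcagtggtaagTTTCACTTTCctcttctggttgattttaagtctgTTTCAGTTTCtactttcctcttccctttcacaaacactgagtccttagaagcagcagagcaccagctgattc
Ifit3b: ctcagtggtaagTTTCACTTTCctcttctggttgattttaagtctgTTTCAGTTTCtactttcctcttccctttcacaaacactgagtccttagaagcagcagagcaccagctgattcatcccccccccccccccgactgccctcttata
Isg15: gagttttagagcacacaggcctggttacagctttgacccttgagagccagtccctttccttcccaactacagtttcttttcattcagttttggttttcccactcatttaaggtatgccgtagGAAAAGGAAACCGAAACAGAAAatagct
Rsad2: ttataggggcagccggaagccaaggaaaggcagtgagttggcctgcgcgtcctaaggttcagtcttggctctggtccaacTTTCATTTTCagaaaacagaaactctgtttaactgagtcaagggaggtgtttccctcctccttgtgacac
Bst2: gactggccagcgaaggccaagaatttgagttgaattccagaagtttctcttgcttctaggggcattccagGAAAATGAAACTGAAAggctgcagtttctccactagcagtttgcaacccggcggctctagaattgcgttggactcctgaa
Xaf1: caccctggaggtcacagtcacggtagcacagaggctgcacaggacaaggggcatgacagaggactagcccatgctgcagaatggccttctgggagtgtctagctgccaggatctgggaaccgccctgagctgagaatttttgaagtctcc

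Ifit1 held its 2 matches with first bases 104 and 85 bases before the start. Ifit3 had them at 156 and 122 bases and its neighbour Ifit3b at 188 and 154 bases, with the same spacing. Isg15 had 3 matches that overlap each other, at 78, 72 and 66 bases. In Bst2 the matches at 130 and 124 bases overlap each other, and a gamma-activated site match at 136 bases overlaps the first of them. Rsad2 had 1 match, at 120 bases. The other members with the letters in their windows were Oas1a, Oas1g, Oas3, Ddx58, Ifih1, Eif2ak2, Stat2 and Trim30a. Ifit2, Herc6, Irf7, Phf11d, Cmpk2, Ifi44 and the remaining 8 matched members, Xaf1 among them, had none in this window, which says nothing of the factor.

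By 4 h after LPS, nearly the whole list had risen at both temperatures. At 22 °C, 34 of 37 members were higher than at 0 h and 0 were lower (limma), with a median log2 difference of 3.74 against -0.10 for all genes tested, of which 15.8% were higher and 13.6% lower. At 30 °C, 33 of 37 were higher and 0 lower, with a median of 3.79 against -0.04, where 17.8% of all genes were higher and 14.6% lower. All 4 libraries at 4 h lay above all libraries at 0 h for those 34 and 33 members (15.7% and 14.3% of all genes tested). Oas1a was listed at 0 in every 22 °C library at 0 h. Its fold is therefore only an approximate lower bound, 7.44 against the level of 3 reads (mean over the 4 libraries). With Oas1a at that bound the 22 °C median was 3.58.

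**Figure D1:**
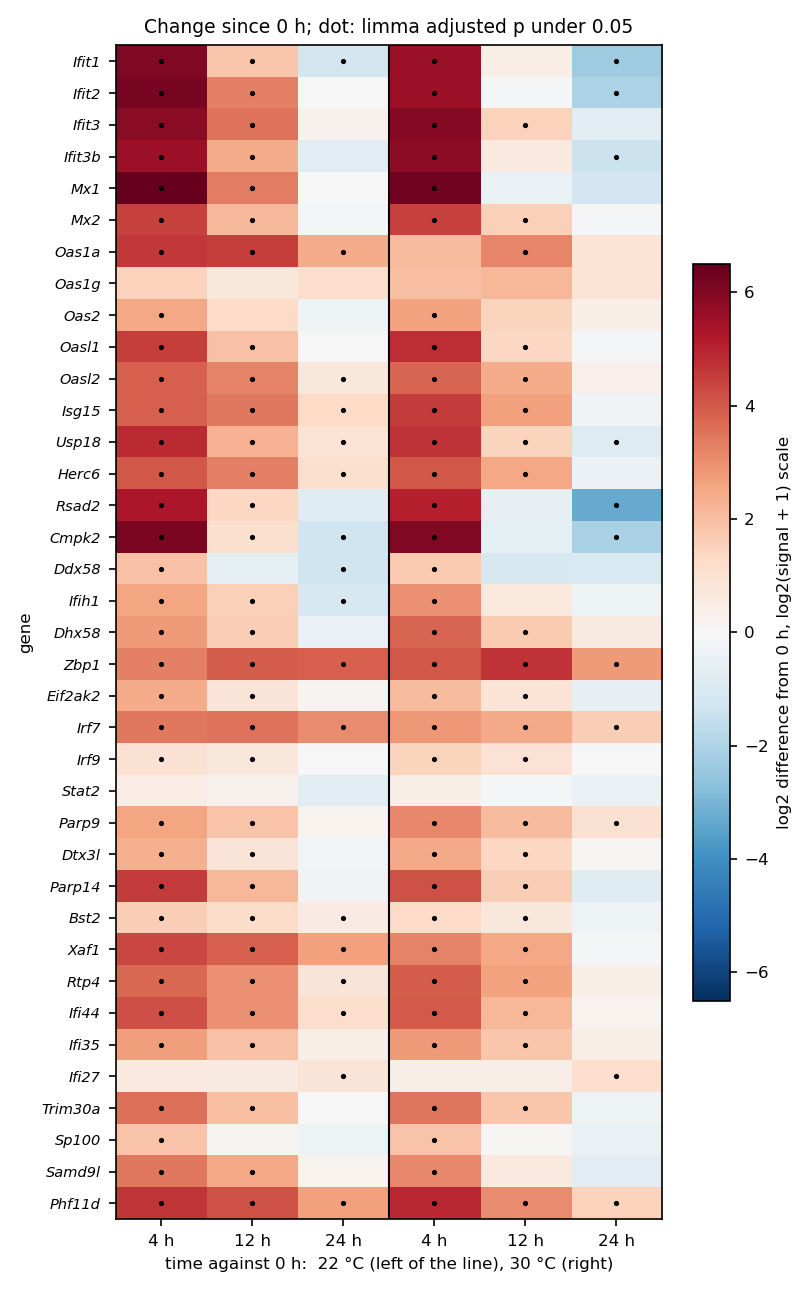
Log2 difference from 0 h of the 37 tested members (rows) at 4, 12 and 24 h at 22 °C (left of the line) and 30 °C (right). Red is higher and blue lower than at 0 h, and a dot marks a limma adjusted p under 0.05; 34 and 33 members carry a dot at 4 h, and 17 and 11 at 24 h. The 22 °C colours of Oas1a depend on the 1 added before the log, since it was listed at 0 at 0 h.

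The IFIT genes, whose proteins bind foreign RNA ends and block their translation, lie in a cluster on chromosome 19 and had the highest median rise of the families, with all 4 members higher at each temperature. Ifit1 (chr19:34640871-34650009) stood at 103, 90.2, 76.9 and 77.9 in the 22 °C livers at 0 h and at 6388, 5039, 5652 and 5818 at 4 h. In the 30 °C livers it went from 89.7, 98.1, 184, 78.4 and 86.4 to 5619.7, 4505, 4779 and 4989. The groups at 0 and 4 h were far apart, and the rise was 6.03 ± 0.38 at 22 °C (adjusted p = 8.74e-15) and 5.59 ± 0.36 at 30 °C (adjusted p = 1.25e-14). Ifit2, another RNA-binding member, was near the level of 3 reads at 0 h, with 0.715, 3.84, 1.48 and 2.47 at 22 °C and 8.27, 2.21, 6.85, 2.03 and 3.64 at 30 °C. At 4 h it reached 272, 155, 250.4 and 183 and 207, 204, 241 and 301. No library at 4 h came near those at 0 h (6.18 ± 0.48 and 5.55 ± 0.46). Ifit3, a cofactor of the other IFIT proteins, rose from 106, 59.5, 41.0 and 73.3 to 4231, 3406, 4121 and 3752 at 22 °C. At 30 °C it rose from 79.0, 68.1, 93.7, 79.4 and 65.2 to 5220.3, 4623, 4498 and 4114. These rises were 5.85 ± 0.39 and 5.89 ± 0.37. Its close copy Ifit3b went from 24.4, 44.3, 68.4 and 33.2 to 2364, 1584, 2156 and 1686 at 22 °C, and from 47.6, 48.8, 56.1, 30.2 and 28.9 to 2635, 2444, 2069 and 2298 at 30 °C. Of the 31-base words in the Ifit3 transcript, 61.8% also occur in Ifit3b. In the last 500 bases, 24.0% of the words of Ifit3 and 9.2% of those of Ifit3b occur in other genes. The split of reads between the pair is therefore uncertain in part.

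Mx1 (chr16:97447035-97462907) is a gene of the dynamin-like GTPase family. Its RNA does not show whether a working protein is made in this strain. The signal was low at 0 h, with 7.66, 1.42, 4.77 and 1.47 at 22 °C and 0, 2.63, 8.73, 6.05 and 7.80 at 30 °C. At 4 h it was 376, 325, 372 and 422 and 446, 355, 343 and 307. Every library at 4 h was more than an order of magnitude above those at 0 h, and the difference was 6.49 ± 0.70 and 6.27 ± 0.66. Mx2, its partner on chromosome 16, rose by 4.44 ± 0.59 and 4.44 ± 0.56. The GRCm38 annotation lists Mx2 as a polymorphic pseudogene.

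The viperin locus on chromosome 12 pairs Rsad2, which encodes the antiviral enzyme viperin, with Cmpk2, a mitochondrial nucleotide kinase next to it on the opposite strand. Rsad2 (chr12:26442746-26456452) had 197, 189.5, 183 and 208 at 0 h at 22 °C and 9694, 6905, 7228 and 6321 at 4 h. At 30 °C the values were 181, 210.4, 443, 199.6 and 157 and then 7738, 6402, 6616 and 9034. Replicate 3 of the 30 °C group stood above the rest at 0 h, yet far under every library at 4 h. It was the highest of its group in 19 of 37 members, was the shallowest library of all, and had a Lyz2 signal, a myeloid marker, of 281 against 33.4 to 72.3 in the rest of the group. The part of these in its values was not tested. Rsad2 rose by 5.25 ± 0.45 and 5.05 ± 0.43, and Cmpk2 by 6.13 ± 0.44 and 6.02 ± 0.42.

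In the ISG15 system, all 3 members rose at both temperatures. ISG15 is a ubiquitin-like protein, HERC6 is the mouse ligase that joins it to other proteins, and USP18 removes it and also blocks the interferon receptor. Isg15 (chr4:156199424-156200818) was 39.1, 30.2, 38.4 and 37.5 at 0 h and 543, 468, 606 and 551 at 4 h at 22 °C. At 30 °C it was 45.6, 18.6, 70.1, 34.9 and 29.0 and then 1083, 859, 748 and 767. The 30 °C libraries at 4 h all lay above the 22 °C ones, as in Ifi44 and Irf9, but the temperature difference did not pass (0.66 ± 0.29, adjusted p = 0.535). The share of all genes with such a separation at 4 h is not given here. Usp18 went from 2.77, 5.20, 2.86 and 3.51 to 146, 108, 151 and 121 at 22 °C. In the warm group it moved from 2.59, 2.44, 3.25, 5.67 and 2.42 to 131, 117, 77.7 and 112. Both rises kept the groups apart (4.87 ± 0.31 and 4.72 ± 0.30). Herc6 had 1.71, 3.67, 5.65 and 8.92 and then 95.7, 104, 90.9 and 64.0 at 22 °C, and 6.62, 2.48, 4.58, 4.20 and 5.77 and then 95.3, 99.6, 78.0 and 87.0 at 30 °C. Its rise was 4.04 ± 0.30 and 4.03 ± 0.29.

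The OAS genes encode sensors of double-stranded RNA that make the activator of RNase L, and the OAS-like genes Oasl1 and Oasl2 lie in a separate cluster on chromosome 5. Of the 5 tested, 4 rose at 22 °C and 3 at 30 °C. Oas2, in both counts, averaged 14.2 and 17.4 at 4 h against 2.30 and 2.55 at 0 h. Oas2 and Oas1g reached the mean of 5 only with the 4 h libraries. Oasl2 had 9.48, 5.34, 3.49 and 6.498 at 0 h and 112, 77.4, 135 and 88.2 at 4 h at 22 °C. At 30 °C it had 8.92, 8.63, 9.28, 6.18 and 6.29 and 127, 130.5, 125 and 102. The rise was 3.89 ± 0.26 and 3.79 ± 0.25. Oas1a, listed at 0 in the 4 libraries at 22 °C, had 2.30, 8.87, 0, 2.34 and 0 at 30 °C at 0 h. At 4 h it was 30.8, 12.9, 55.3 and 13.0 and 32.2, 17.4, 0 and 18.7. In the warm group 1 library at 4 h was listed at 0, and the change at 30 °C did not pass (2.04 ± 0.82, adjusted p = 0.0531). Oas1g did not pass at either temperature, with 0, 2.29, 3.81 and 0 against 9.83, 0, 9.70 and 7.81 at 22 °C and 0, 0, 5.05, 0 and 2.60 against 8.06, 15.0, 18.6 and 0 at 30 °C. Its libraries overlapped (1.503 ± 1.02, adjusted p = 0.288, and 1.98 ± 0.97, adjusted p = 0.118). Oas1a and Oas1g share 68.7% of the 31-base words of Oas1a, so their split is uncertain too. Oas3, untested, was 0 to 2.504 at 0 h and 2.04 to 15.2 at 4 h over both temperatures.

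All 5 nucleic acid sensors rose at both temperatures. Ddx58 encodes RIG-I, Ifih1 MDA5 and Dhx58 LGP2, which recognise viral RNA. Eif2ak2 encodes the kinase PKR, and Zbp1 a sensor of Z-form nucleic acid that can start necroptosis. Zbp1 (chr2:173206612-173218923) was 30.0, 35.1, 18.6 and 33.3 at 0 h and 337, 221, 299.9 and 285 at 4 h at 22 °C. At 30 °C it was 4.39, 13.2, 22.3, 37.3 and 15.8 and 294, 351, 273 and 176. The rise was 3.27 ± 0.34 and 4.03 ± 0.32. Ifih1 had 9.54, 27.3, 18.6 and 18.8 and then 104, 105, 111 and 110.3 at 22 °C, and 15.8, 16.8, 10.6, 8.38 and 9.17 and then 112, 76.5, 111 and 94.3 at 30 °C. It rose by 2.56 ± 0.36 and 2.95 ± 0.34. The smallest rise of this group was that of Ddx58 (1.90 ± 0.46 and 1.68 ± 0.44).

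Among the signalling factors, Irf7 and Irf9 rose and Stat2 did not pass. Irf7 encodes the factor that drives the later wave of interferon alpha genes, and it went from 4.52, 7.73, 7.21 and 2.37 to 68.9, 57.6, 66.8 and 66.6 at 22 °C. At 30 °C it went from 8.07, 7.07, 9.56, 7.02 and 5.45 to 86.5, 69.2, 54.5 and 35.5. The differences were 3.44 ± 0.26 and 2.83 ± 0.24. Irf9, the DNA-binding subunit of ISGF3, rose by 0.99 ± 0.23 and 1.44 ± 0.22. Stat2, its partner, had 18.2, 62.8, 55.5 and 81.7 at 0 h and 90.7, 53.6, 98.3 and 44.8 at 4 h at 22 °C. At 30 °C it had 52.6, 50.998, 144, 55.5 and 49.0 and 81.4, 53.7, 106 and 128. These ranges overlapped, and neither difference passed (0.50 ± 0.52, adjusted p = 0.52, and 0.45 ± 0.50, adjusted p = 0.517).

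Parp9, Dtx3l and Parp14, neighbours on chromosome 16 that encode ADP-ribosyltransferases and a ubiquitin ligase, all rose. Parp14 stood at 37.9, 15.5, 18.5 and 19.2 at 0 h and 643, 419, 498 and 575 at 4 h at 22 °C. In the 30 °C livers it stood at 12.5, 79.9, 34.8, 73.6 and 12.9 and 707, 529, 585 and 500.3. The rise was 4.56 ± 0.44 and 4.12 ± 0.42. Parp9 and Dtx3l rose by 2.57 and 2.31 at 22 °C, and by 3.14 and 2.47 at 30 °C. Their annotated 5' ends overlap by 682 bases on opposite strands, away from the 3' ends that the protocol reads.

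Of the 10 tested membrane and other effectors, 9 rose at each temperature. Phf11d, a PHD finger gene of a close family, had 15.6, 14.5, 7.43 and 9.85 and then 385, 329.9, 356 and 216 at 22 °C. At 30 °C it had 14.6, 5.51, 24.0, 11.1 and 19.6 and then 473, 441, 343 and 485. It rose by 4.67 ± 0.35 and 4.90 ± 0.33. Of the words in the last 500 bases of its transcript, 74.3% occur in other genes. Xaf1, an inhibitor of the apoptosis blocker XIAP, went from 1.85, 3.69, 3.71 and 2.94 to 89.9, 53.5, 78.2 and 104 at 22 °C. At 30 °C it went from 8.77, 6.76, 5.35, 8.06 and 4.13 to 72.8, 64.0, 66.0 and 74.7. Its rise was 4.34 ± 0.33 and 3.24 ± 0.31. Ifi44, Rtp4, Trim30a, Samd9l and Ifi35 rose by 2.70 to 4.17 at 22 °C, and Sp100 and Bst2 by 1.85 and 1.58. Ifi27, a small mitochondrial protein gene, was the member of this group that did not pass. It had 31.5, 42.7, 56.4 and 34.3 at 0 h and 96.0, 46.9, 91.2 and 36.2 at 4 h at 22 °C, and 52.2, 84.8, 35.9, 66.5 and 44.6 and then 112, 99.1, 40.5 and 55.3 at 30 °C. The overlap was wide (0.62 ± 0.35, adjusted p = 0.196, and 0.37 ± 0.33, adjusted p = 0.416). Ifi27l2a, its untested relative, was 0 to 10.4 at 0 h and 0 to 6.02 at 4 h.

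Before and at the peak of the response, no temperature difference passed among the members. At 0 h, 0 of 37 differed (limma; 5 at an unadjusted p under 0.05; smallest adjusted p 0.26), where 0.506% of all genes tested did. At 4 h, 0 of 37 differed (2 at an unadjusted p under 0.05; smallest adjusted p 0.535), against 0.207% of all genes. The interaction at 4 h, which is the rise at 30 °C minus that at 22 °C, passed for 0 of 37 (3 at an unadjusted p under 0.05; smallest adjusted p 0.639), against 0.0115% of all genes. The intervals are wide enough to hold sizeable differences. At 4 h the 95% interval of the temperature difference in Ifit1, for instance, ran from -0.97 to 0.56.

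**Figure D2:**
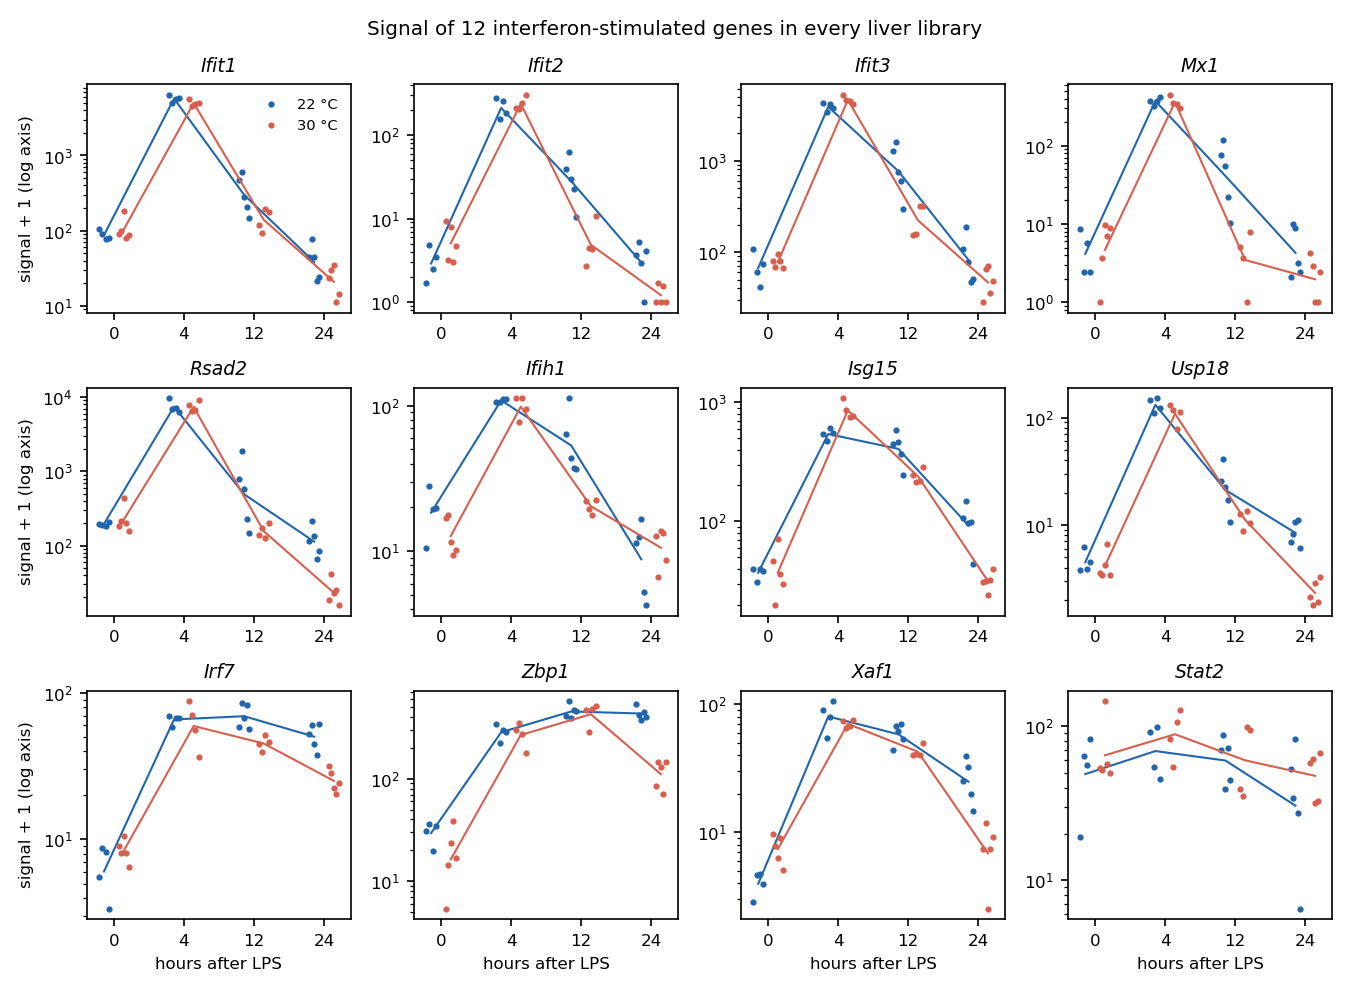
Signal + 1 on a log axis in every library for 12 members at 0, 4, 12 and 24 h, blue for 22 °C and red for 30 °C. Lines join the group means of the log values; the colours overlap at 4 h except in Isg15, and in Mx1 the 30 °C libraries are all lower than the 22 °C ones at 12 h, while in Zbp1 and Usp18 they are all lower at 24 h.

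From 4 to 12 h most members fell, and at 12 h a set of 6, with 3 of the 4 IFIT genes and Mx1 among them, was lower at 30 °C. At 22 °C, 22 of 37 fell and 0 rose between 4 and 12 h (median -1.17; 14.4% of all genes tested fell). At 30 °C, 27 of 37 fell and 0 rose (median -1.79; 17.9% of all genes fell). Compared with 0 h, 31 of 37 members were still higher at 12 h at 22 °C and 0 lower (median 1.94; 20.7% of all genes higher and 20.6% lower). At 30 °C, 23 were higher and 0 lower (median 1.45; 19.3% and 18.9%). Set directly against each other at 12 h, 6 members were lower at 30 °C and 0 higher (median -0.46; 3.29% of all genes lower). They were Ifit2, Mx1, Ifit3b, Ifit3, Ifih1 and Rsad2. Both temperatures are compared here in the same libraries as in the changes since 0 h and since 4 h, so these counts are not independent of each other. Against 0 h at 12 h, the 22 °C call of Cmpk2 ended when any 1 of 7 of the 9 libraries was left out (adjusted p up to 0.204), and that of Rsad2 without the 22 °C 12 h replicate 2 (adjusted p = 0.0734).

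Mx1 had the largest difference. At 12 h it was 76.3, 118, 54.0, 21.3 and 9.43 at 22 °C and 4.07, 2.64, 0 and 6.94 at 30 °C. Every 30 °C library lay below every 22 °C library, and in the warm group the approximate level of 3 reads was 2.48 to 2.95. The difference was -3.56 ± 0.66 (adjusted p = 0.00115), and 14.9% of the 4 h mean was left at 22 °C against 0.941% at 30 °C. Ifit2 was 37.7, 60.9, 29.2, 21.7 and 9.51 at 22 °C and 1.71, 3.45, 3.36 and 9.72 at 30 °C. The highest warm library just exceeded the lowest cool one, and the difference was -2.52 ± 0.46 (adjusted p = 0.000832). Ifit2 was also the 1 member whose change since 0 h differed between temperatures at 12 h (interaction -3.32 ± 0.65, adjusted p = 0.0207; 0.207% of all genes lower). That interaction was lost without the 22 °C 12 h replicate 2 or the 30 °C 12 h replicate 1 (adjusted p up to 0.0599).

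Ifit3 at 12 h was 1256, 1596, 756, 591 and 294 at 22 °C and 153, 157, 314 and 319 at 30 °C, a difference of -1.79 ± 0.37 (adjusted p = 0.00346). The lowest cool library lay within the warm range. Ifit3b was 273, 488, 238, 150.05 and 102 and 40.6, 47.3, 112 and 81.8, with -1.73 ± 0.34 (adjusted p = 0.00205). Ifit1, the family member with the highest mean signal, was 464, 604, 284, 203 and 147 and 119, 93.1, 192 and 175. It leaned the same way and did not pass (-1.10 ± 0.36, adjusted p = 0.0732).

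Ifih1 at 12 h was 63.0, 111, 42.7, 36.4 and 35.6 at 22 °C and 21.2, 18.5, 16.8 and 21.4 at 30 °C. The groups did not overlap (-1.38 ± 0.34, adjusted p = 0.0136), although the call ended without the 22 °C replicate 2 (adjusted p = 0.0719). Rsad2 was 778, 1901, 571, 230.1 and 145 and 137, 169.6, 126 and 197, a difference of -1.66 ± 0.43 (adjusted p = 0.02). The cool libraries spread more than 10-fold and the lowest of them lay inside the warm range. This call ended without the 22 °C replicate 1 or 2 or the 30 °C replicate 1 or 3 (adjusted p up to 0.098).

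Over the list, 4 members (Ifih1, Irf7, Mx1 and Samd9l) had every 30 °C library below every 22 °C library at 12 h, against 5.31% of all genes tested. Eif2ak2 went the other way, with 28.1 to 38.4 at 22 °C and 41.9 to 54.8 at 30 °C (0.47 ± 0.23, adjusted p = 0.299), as did 2.47% of all genes. The 22 °C livers at 12 h differed widely among themselves. Replicate 2 was the highest of the 5 in 24 of 37 members, and replicate 5 the lowest in 20. Without replicate 2, 4 members were lower at 30 °C, and without replicate 5, 12 were. The other named members at 12 h gave no passing difference. Usp18 was 24.7, 39.7, 21.3, 16.1 and 9.57 at 22 °C and 11.5, 7.83, 12.5 and 9.37 at 30 °C, and Herc6 was 58.7, 68.5, 59.5, 37.6 and 40.7 and 37.9, 27.1, 36.8 and 24.2. Isg15, the ubiquitin-like modifier, was 446, 580.3, 464, 369.7 and 245 and 243, 213, 219 and 284 (-0.76 ± 0.28, adjusted p = 0.12). Oasl2 was 85.7, 74.3, 79.0, 52.0 and 37.2 and 38.6, 41.2, 46.8 and 57.2. Irf7 was 57.7, 84.6, 66.4, 82.0 and 55.6 and 43.9, 38.2, 50.1 and 44.9, separate ranges with a difference that did not pass (-0.62 ± 0.24, adjusted p = 0.157). Phf11d was 313, 252, 243, 194 and 139.7 and 114, 77.0, 176 and 145. Parp14 was 123, 176, 89.9, 60.5 and 80.4 and 125, 128, 71.0 and 86.8, and Oas1a 11.6, 31.6, 20.4, 34.7 and 16.5 and 24.5, 33.7, 14.1 and 18.9. For this pair the groups overlapped throughout. Stat2 was 69.5, 86.6, 38.0, 70.8 and 43.8 and 38.4, 34.4, 98.5 and 93.3, Oas1g 9.62, 0, 3.86, 0 and 6.64 and 4.44, 5.80, 8.50 and 12.6, and Ifi27 55.5, 44.2, 83.3, 52.7 and 78.0 and 55.0, 108, 75.5 and 68.8.

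**Figure D3:**
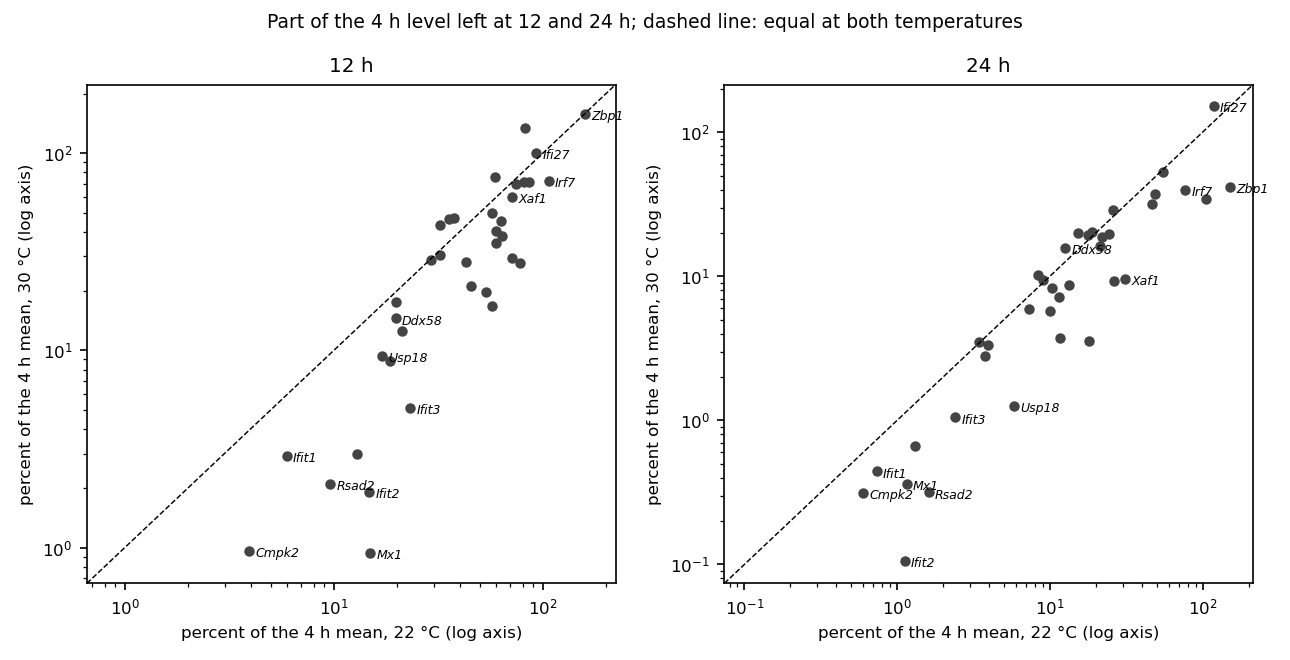
Percent of the 4 h mean signal left at 12 h (left) and 24 h (right) for each of the 37 tested members, 22 °C on the x axis and 30 °C on the y axis, both log axes. Points under the dashed line kept a smaller part at 30 °C: 31 of 37 at 12 h and 28 of 37 at 24 h. The values are ratios of group means with no error bars, and no such count was made over all genes.

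As a share of the 4 h mean, the median member kept 45.2% at 12 h at 22 °C and 29.4% at 30 °C, and 31 of 37 kept less at 30 °C. The share of all genes that kept less at 30 °C was not computed, so this count has no background beside it. Over all genes tested, the change from 4 to 12 h at 30 °C minus that at 22 °C had a median log2 of -0.083. After upper-quartile rescaling that median was 0.0505. The members differed widely. Cmpk2 kept 3.93% and 0.959%, Ifit1 5.95% and 2.91%, and Isg15 77.7% and 27.7%. The 4 h mean of Isg15 was 542 at 22 °C and 864 at 30 °C, so its percentages have unequal bases. Zbp1 went the other way and was higher at 12 h than at 4 h by group mean, at 159% and 159%, although that step did not pass (adjusted p = 0.127 and 0.139). The fall from 4 to 12 h was not shown to differ between temperatures for any member after adjustment: 0 of 37 passed (10 at an unadjusted p under 0.05; smallest adjusted p 0.0788, for Ifit2 and Ifit3b), against 0.149% of all genes.

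From 12 to 24 h the fall went on, and by 24 h 10 members were lower at 30 °C, 2 of them (Ifit2 and Rsad2) also lower at 12 h. Between 12 and 24 h, 27 of 37 members fell at 22 °C (median -1.95; 6.6% of all genes fell) and 30 of 37 at 30 °C (median -1.52; 9.52% of all genes fell), and 0 rose at either. Against 0 h, 13 members were higher and 4 lower at 22 °C (median 0.16; 19% of all genes higher and 18% lower). At 30 °C, 5 were higher and 6 lower (median -0.24; 15.3% and 14.4%). These shares lie nearer to those of all genes than the ones at 4 h. The 5 members higher at 30 °C were Parp9, Irf7, Zbp1, Ifi27 and Phf11d. Those under their 0 h level were Ifit1, Cmpk2, Ddx58 and Ifih1 at 22 °C, and Ifit1, Ifit2, Ifit3b, Usp18, Rsad2 and Cmpk2 at 30 °C. Of the falls at 22 °C, those of Ddx58, Ifih1 and Cmpk2 ended when any 1 of 4, 2 and 2 of the 9 libraries was left out (adjusted p up to 0.0922, 0.0692 and 0.0638), and that of Usp18 at 30 °C when any 1 of 3 of the 10 was (up to 0.0843; 0.183 under other settings). Among the rises at 22 °C, those of Bst2 and Oas1a ended in the same way for any 1 of 7 and any 1 of 2 of the 9 libraries (up to 0.202 and 0.0628).

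At 24 h, 10 members were lower at 30 °C and 0 higher (median -0.36; 8.71% of all genes lower). They were Usp18, Zbp1, Xaf1, Isg15, Rsad2, Herc6, Irf7, Bst2, Phf11d and Ifit2. In 8 of them, all but Phf11d and Ifit2, every 30 °C library lay below every 22 °C library, against 5.72% of all genes tested. For 8 members the change since 0 h was also lower at 30 °C (median of the interaction -0.67; 3.88% of all genes lower). These were the same 10 without Zbp1 and Phf11d. The temperature difference and the interaction at 24 h share the 24 h libraries.

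**Figure D4:**
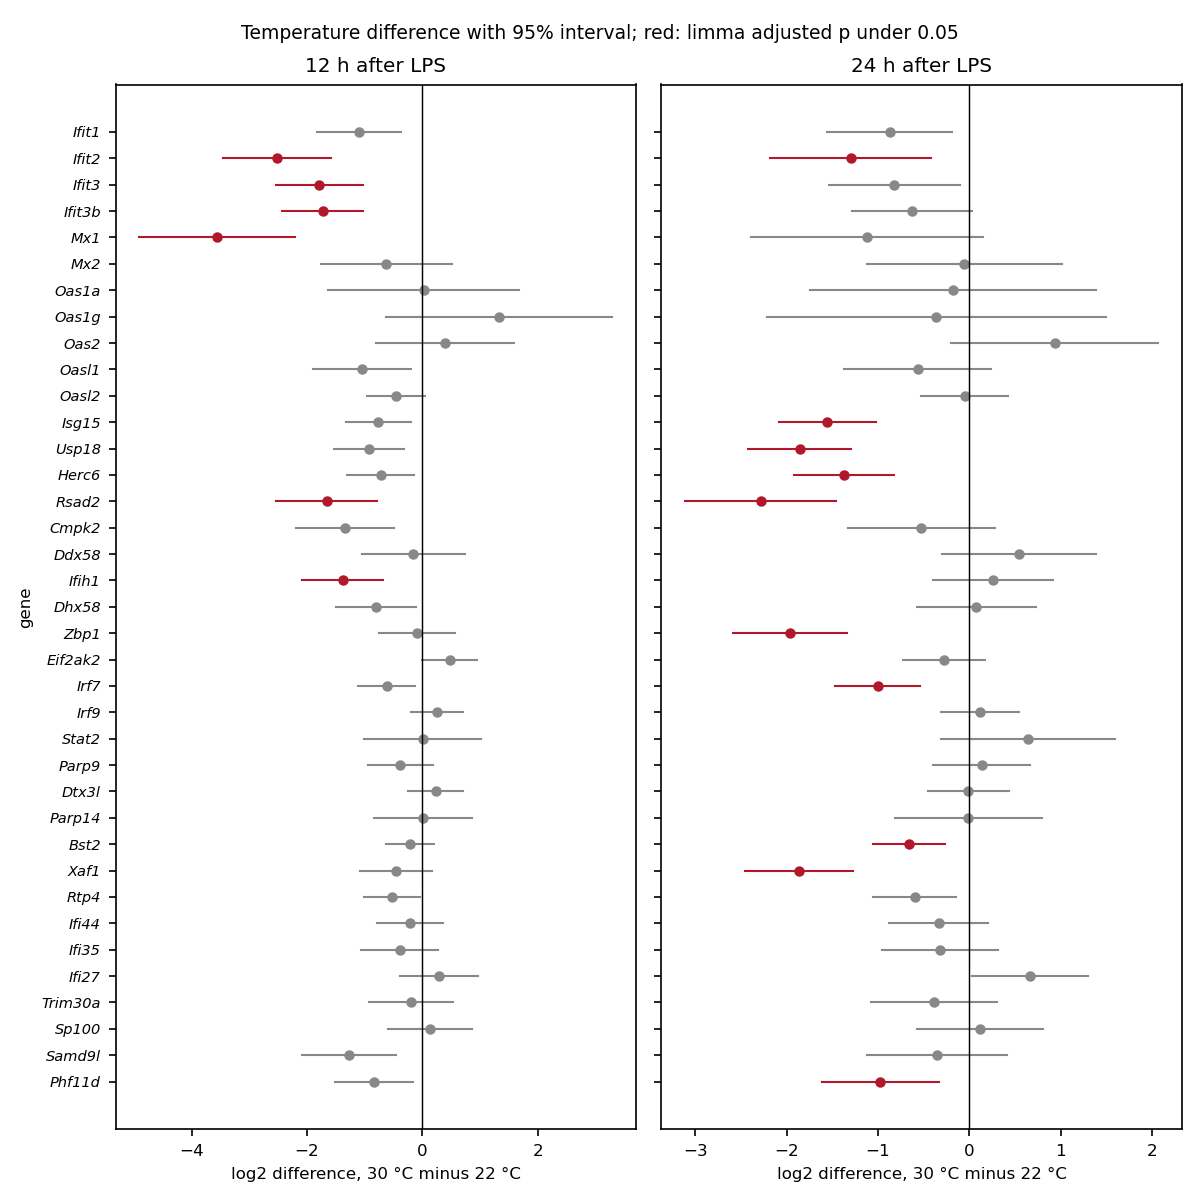
Log2 difference between 30 and 22 °C at 12 h (left) and 24 h (right) for the 37 tested members, with 95% intervals; red marks a limma adjusted p under 0.05. The 6 red members at 12 h and the 10 at 24 h all lie to the left of 0, and Ifit2 and Rsad2 are red at both times.

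All 3 genes of the ISG15 system were in that set. Isg15 at 24 h was 106, 148, 96.0, 98.0 and 42.8 at 22 °C and 30.1, 30.6, 23.1, 31.3 and 39.1 at 30 °C. The warm livers were back at their 0 h range while the cool ones were above theirs, and the difference was -1.55 ± 0.26 (adjusted p = 5.24e-05; interaction -1.55 ± 0.38, adjusted p = 0.00793). Usp18 was 6.00, 7.28, 9.74, 10.1 and 5.10 at 22 °C and 1.11, 0.774, 1.86, 0.924 and 2.26 at 30 °C. These are low values, since the approximate level of 3 reads was 1.51 to 4.35 in the warm group. The difference was -1.86 ± 0.28 (adjusted p = 1.01e-05; interaction -1.74 ± 0.41). Herc6 was 10.2, 11.4, 14.3, 9.20 and 6.81 and 3.33, 2.43, 4.53, 2.38 and 4.17, also near that level, with -1.38 ± 0.27 (adjusted p = 0.000346). Its interaction (-1.42 ± 0.39) was lost without the 22 °C 0 h replicate 1 (adjusted p = 0.063). Without that library 5 members in all had a passing interaction at 24 h in place of 8.

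Rsad2 at 24 h was 115, 213, 132, 65.4 and 82.6 at 22 °C and 17.3, 40.3, 21.7, 24.0 and 14.6 at 30 °C. The warm livers were all under the lowest library at 0 h, and the change since 0 h was -3.26 ± 0.41 at 30 °C (adjusted p = 9.22e-08) against -0.79 ± 0.43 at 22 °C, which did not pass (adjusted p = 0.154). Between temperatures it differed by -2.28 ± 0.41 (adjusted p = 0.000112; interaction -2.47 ± 0.59, adjusted p = 0.0068). Its neighbour Cmpk2, given here after its values were seen, was 3.36, 16.3, 11.4, 4.33 and 11.7 and 5.59, 2.43, 9.20, 4.42 and 7.25. It fell under 0 h at both temperatures, and the temperature difference did not pass (-0.52 ± 0.40).

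From 12 to 24 h Zbp1 fell at 30 °C, to a level still above 0 h, and did not pass at 22 °C. It was 537, 419, 368, 447 and 399 at 22 °C and 84.0, 145, 130.1, 69.7 and 143 at 30 °C at 24 h. At 12 h it had been 403, 567, 389.5, 462 and 453 and 463, 284, 479 and 512, where the ranges overlapped. The difference at 24 h was -1.96 ± 0.31 (adjusted p = 1.74e-05). Its change from 12 to 24 h was -1.94 ± 0.32 at 30 °C and -0.07 ± 0.31 at 22 °C, and that step differed between temperatures (-1.88 ± 0.45, adjusted p = 0.00544). Against the 4 h mean, 152% was left at 22 °C and 41.8% at 30 °C.

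Xaf1 was 24.3, 38.3, 31.7, 18.9 and 13.8 at 22 °C and 6.46, 10.8, 1.54, 6.41 and 8.17 at 30 °C at 24 h, having been 42.8, 66.0, 60.3, 69.0 and 52.1 and 39.1, 39.8, 39.3 and 48.8 at 12 h. The warm libraries spread around their 0 h values, while every cool library was above all of its 0 h group. The difference was -1.86 ± 0.29 (adjusted p = 1.87e-05), and its interaction (-2.76 ± 0.42, adjusted p = 6.86e-05) had the smallest p of the list. Its 30 °C libraries already lay above all 22 °C ones at 0 h (0.90 ± 0.31, adjusted p = 0.26), and that gap is part of the interaction. The 22 °C values of Xaf1 at 0 h, 1.85 to 3.71, were near the approximate level of 3 reads, 3.31 to 4.25 in that group. The step from 12 to 24 h also differed (-1.41 ± 0.42, adjusted p = 0.0341), a call that ended when any 1 of 9 libraries was left out (adjusted p up to 0.0754). Irf7 was 50.99, 59.3, 43.6, 36.5 and 60.1 and 30.8, 27.5, 21.3, 19.4 and 23.2, above 0 h at both temperatures. It was lower at 30 °C (-1.002 ± 0.23, adjusted p = 0.00184; interaction -1.46 ± 0.33).

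The remaining 3 were smaller or less stable. Bst2, which encodes tetherin and was named after its values were seen, was 62.6, 52.7, 45.3, 52.1 and 59.0 at 22 °C and 32.2, 31.001, 41.0, 32.7 and 33.6 at 30 °C (-0.66 ± 0.19, adjusted p = 0.0156). Its interaction (-0.89 ± 0.28) ended when any 1 of 13 of the 19 libraries was left out (adjusted p up to 0.117). Phf11d was 68.4, 111, 105, 34.5 and 105 and 31.7, 47.4, 30.5, 35.2 and 57.9, with the lowest cool library inside the warm range (-0.98 ± 0.31, adjusted p = 0.0269). Ifit2 was 2.71, 4.29, 1.91, 0 and 3.15 and 0, 0.699, 0, 0.557 and 0 (-1.30 ± 0.43, adjusted p = 0.033). Every warm library was under the level of 3 reads for Ifit2. Its interaction (-2.09 ± 0.63, adjusted p = 0.0317) ended when any 1 of 9 of the 19 libraries was left out (adjusted p up to 0.079). The calls of Phf11d and Ifit2 at 24 h ended when any 1 of 6 and any 1 of 7 of the 10 libraries was left out (adjusted p up to 0.0848 and 0.108).

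Several members that passed at 12 h did not pass at 24 h, which does not show that the difference was gone. The ratio of group means at 24 h, 30 to 22 °C, was 0.30 for Mx1, 0.52 for Ifit3, 0.62 for Ifit3b and 1.11 for Ifih1. Mx1 was 1.09, 8.93, 7.95, 2.22 and 1.404 at 22 °C and 3.25, 1.87, 0, 0 and 1.42 at 30 °C (-1.12 ± 0.62, adjusted p = 0.227). Ifit3 was 108, 185, 75.9, 46.6 and 49.8 and 27.3, 64.8, 68.6, 34.5 and 46.7, and Ifit3b 19.4, 42.2, 27.5, 18.0 and 19.5 and 15.0, 9.22, 15.6, 16.4 and 22.4. Neither passed (adjusted p = 0.103 and 0.185). Ifih1 was 10.3, 11.6, 15.6, 4.27 and 3.24 and 11.7, 5.60, 12.7, 12.3 and 7.68, overlapping ranges. It fell further from 12 to 24 h at 22 °C (-2.60) than at 30 °C (-0.95), a difference of 1.65 ± 0.47 (adjusted p = 0.0239). That call ended without the 22 °C 12 h replicate 2 or the 22 °C 24 h replicate 4 (adjusted p up to 0.0604). In this step 1 member (Ifih1) changed more upward and 2 (Zbp1 and Xaf1) more downward at 30 °C, against 5.78% and 1.87% of all genes.

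The other named members overlapped between temperatures at 24 h. Ifit1 was 44.4, 77.8, 44.2, 20.3 and 23.3 at 22 °C and 22.9, 29.3, 34.6, 10.2 and 13.2 at 30 °C, and 9 of these 10 libraries lay under every 0 h library (adjusted p = 0.0679 between temperatures). Oasl2 was 14.7, 12.7, 10.0, 8.86 and 6.93 and 12.9, 10.2, 8.29, 10.6 and 8.25, and Parp14 18.1, 26.0, 16.5, 16.4 and 15.3 and 10.8, 26.3, 8.55, 20.3 and 36.4. Oasl2 was above 0 h at 22 °C (0.72 ± 0.25), a call that ended when any 1 of 4 of the 9 libraries was left out (adjusted p up to 0.125; 0.144 under other settings). Parp14 overlapped its 0 h values at each temperature. Oas1a was 0, 10.7, 1.77, 6.43 and 17.6 and 4.23, 6.27, 5.80, 0 and 8.26, and Oas1g 13.8, 5.75, 16.5, 0 and 0 and 2.51, 8.27, 0, 5.67 and 1.33. Stat2 was 51.7, 33.0, 81.6, 26.3 and 5.53 and 57.1, 59.9, 30.8, 31.8 and 65.8. Ifi27 was 45.4, 68.3, 45.2, 104 and 137 and 149.8, 83.0, 109.9, 126 and 119, and it was the 1 member that passed at 24 h against 0 h without having passed at 4 h or 12 h at either temperature (0.84 ± 0.33, adjusted p = 0.047, and 1.07 ± 0.31, adjusted p = 0.00884). Its 22 °C call ended in 4 of 9 other settings and when any 1 of 6 of the 9 libraries was left out (adjusted p up to 0.158).

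**Figure D5:**
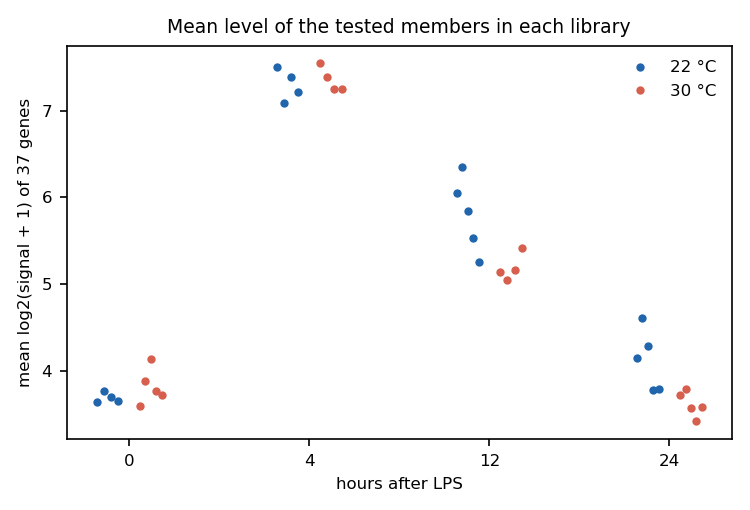
Mean log2(signal + 1) of the 37 tested members in each library against time, blue for 22 °C and red for 30 °C. The libraries lie at 7.09 to 7.55 at 4 h, at 5.26 to 6.35 (22 °C) and 5.05 to 5.42 (30 °C) at 12 h, and at 3.78 to 4.61 and 3.42 to 3.79 at 24 h.

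The mean log2 level of the 37 members was 3.64 to 3.77 at 0 h at 22 °C and 3.59 to 4.13 at 30 °C. At 4 h it was 7.09 to 7.50 and 7.25 to 7.55. At 12 h the 30 °C range (5.05 to 5.42) overlapped the lowest part of the 22 °C range (5.26 to 6.35), and at 24 h the ranges (3.42 to 3.79 against 3.78 to 4.61) barely touched. No test is given for this mean.

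Genes of the pathway around the members were read from lists of their own. Of all genes tested, 15.8% rose and 13.6% fell at 4 h at 22 °C, and 17.8% and 14.6% at 30 °C. At 24 h, 8.71% were lower and 9.93% higher at 30 °C. In lists this short, counts of 1 or 2 genes are not set apart from these shares, here and for the lists that follow. Interferon ligand transcripts were almost undetected: 18 of 21 ligand genes, Ifnb1 among them, were listed at 0 in all 36 libraries, and the highest value of any ligand in a library was 2.76. Ifng, which encodes interferon gamma, was above 0 in 0 of 9 libraries at 0 h, in 7 of 8 at 4 h, in 3 of 9 at 12 h and in 0 of 10 at 24 h. It reached the level of 3 reads in 1 library, at 4 h, and no ligand was tested. Of 5 tested receptor genes, 1 rose at 4 h at each temperature, Ifngr2, a chain of the interferon gamma receptor (1.05 ± 0.31 and 1.14 ± 0.30), and 0 differed between temperatures at 24 h. Ifnar1, a chain of the type I receptor, did not pass (-0.28 ± 0.29 and 0.57 ± 0.28). Of 10 JAK-STAT and IRF factors, 7 rose at each temperature at 4 h, with 1 lower at 30 °C. Stat3, a factor of the interleukin 6 response, rose by 2.63 ± 0.18 and 2.42 ± 0.17, Irf1 by 2.97 and 2.76, and Irf2 by 2.02 and 1.84. At 24 h, 3 of these 10 were lower at 30 °C, among them Stat3 (-0.69 ± 0.16, adjusted p = 0.00189).

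Upstream of interferon, 5 of 9 tested genes rose at 22 °C and 6 at 30 °C at 4 h, and 1 fell at each. Cd14 rose by 4.87 ± 0.31 and 4.98 ± 0.29, Myd88, the adaptor of the other TLR4 branch, by 3.63 and 4.23, Ikbke by 2.80 and 2.64, and Tmem173, which encodes STING, by 3.05 and 2.01. At 24 h, 2 of the 9 were lower at 30 °C, Cd14 (-1.88 ± 0.28, adjusted p = 7.51e-06) and Tbk1. Of 9 negative regulators, 4 rose at each temperature at 4 h, with Socs1 by 6.38 ± 0.45 and 5.49 ± 0.42, Socs3 by 4.76 and 4.55, Ptpn2 by 3.73 and 2.98, and Ptpn1 by 1.82 and 2.39. At 24 h, 3 were lower at 30 °C, among them Socs1 (-2.07 ± 0.40, adjusted p = 0.000295).

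Of 41 other tested interferon-stimulated genes, 38 rose at 22 °C and 40 at 30 °C at 4 h (medians 2.44 and 2.60), with 0 lower. Znfx1 rose by 4.43 and 4.25, Daxx by 3.50 and 3.68, Tor3a by 4.84 and 4.35, and Trim25 by 2.02 and 2.13. At 24 h, 6 of these 41 were lower and 1 higher at 30 °C (median -0.29), while 10 of the 37 members were lower and 0 higher. Of all genes tested, 8.71% were lower and 9.93% higher. All 18 genes of a list of interferon gamma GTPases and chemokines rose at 4 h at each temperature. The chemokine gene Cxcl9 rose by 5.61 and 5.80, and the GTPase genes Ifi47, Gbp6 and Gbp7 by 4.84, 4.68 and 3.57 at 22 °C. At 24 h, 14 of those 18 were lower at 30 °C (median -1.52), against 10 of the 37 members (median -0.36). Whether the lists differ from each other was not tested.

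Markers of other liver cells were read beside the temperature differences. Of all genes tested, 0.977% were higher at 30 °C at 12 h and 9.93% at 24 h. At 12 h the summed signal of the 10 neutrophil and monocyte markers was 304 to 383 at 22 °C and 394 to 646 at 30 °C, with 0 of its 7 tested members passing. At 24 h it was 183 to 383 and 312 to 489, with 2 of 7 higher at 30 °C. The 10 Kupffer cell markers summed to 81.1 to 111 and 89.2 to 105 at 12 h, and to 54.5 to 150 and 126 to 158 at 24 h, with 0 and 1 of 10 higher at 30 °C. The 8 sinusoidal endothelial markers summed to 115 to 193 and 141 to 193 at 12 h, and to 106 to 182 and 178 to 295 at 24 h, with 0 and 5 of 7 tested members higher at 30 °C. The 6 hepatocyte markers summed to 12948 to 21280 and 10587 to 13905 at 12 h (2 lower at 30 °C), and to 11319 to 16670 and 10643 to 17984 at 24 h (2 higher). The 6 markers of plasmacytoid dendritic cells, the main makers of interferon alpha, summed to 7.49 to 38.5 and 23.0 to 48.6 at 12 h and 22.2 to 46.6 and 47.1 to 75.1 at 24 h, with 0 and 1 of 3 tested higher at 30 °C. The 1 was Ly6d, at 5.48 to 32.5 and 18.2 to 52.2 at 24 h and 0 to 3.45 at 0 h, while the defining marker Siglech overlapped between temperatures at 24 h (0 to 4.60 and 1.21 to 7.76). Klk1 was listed at 0 in every library of each later group. Sums of T and NK cell markers at 24 h were 5.78 to 20.7 and 16.5 to 25.8, of B cell markers 2.38 to 6.71 and 0.503 to 6.62, and of stellate cell markers 432 to 542 and 446 to 664, with 2 of 5 tested stellate markers higher at 30 °C. The part of these cells in the members' differences was not tested.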

How the data were processed

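The table analysed here holds liver RNA values of 36 samples in 8 groups, 4 to 5 samples each. Trimmomatic, kallisto and sleuth are named in the submitters' processing notes, without versions. The sources used here name no index or genome build, nor any collapsing of molecular identifiers. The deposited signal is the column that the file header calls scaled reads per base, made by the authors for each gene. A companion column named for TPM sums to 757040 to 1746038 per library and was used only as an alternative. Since the signal is normalized, no count model was fitted. Depth was read from the files as 557000 to 2744000 estimated reads per library, and values are not whole reads (15.0 to 19.2% were whole multiples of 1 read, within 0.01 read). Low values are therefore the least precise.

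From these values log2(signal + 1) was computed for the 8702 genes whose signal averaged 5 or more. A model of 8 group means over all 36 samples (28 residual degrees of freedom) was fitted with limma 3.58.1 in R 4.3.3, with an intensity trend. Adjusted p-values are Benjamini-Hochberg over all tested genes in each of 19 contrasts, with a threshold of 0.05. Tested on simulated data, the procedure gave unbiased estimates but missed part of the changed genes and did not reach the recovery first asked of it; that criterion was then loosened and the fit kept. A gene that did not pass may therefore still have changed. Temperature and interaction contrasts share libraries, and the 12 and 24 h changes share the 0 h libraries.

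The members and lists were chosen with earlier results of these data known. Values in every sample are printed for the member of highest mean in each role group, for members passing a temperature contrast or interaction (up to 6 in each contrast, a reading of the rule made after the values were seen) and for members that did not pass at 4 h. In other lists up to 4 genes of smallest p at 4 h at 22 °C are named (1 gene under this rule is not reported here); others named there, and the motifs and promoters shown, were chosen after values were seen. Promoters come from RefSeq on GRCm38.p6, and gene coordinates from the GRCm38 annotation. Alternatives were the other column, pseudocounts of 0.5 and 5, no filter, a mean of at least 20, upper-quartile rescaling, a replicate block, array weights, only the groups compared, and leaving out each library.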

Additional observations from a re-analysis of the deposited data

Results flagged for a closer look

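In 160 groups of values of the named members, 8 held a library far from the others. By chance 1 in 20 independent groups would. These groups share libraries and are not independent, so that rate cannot show whether the 8 arose by chance. At 0 h at 30 °C, replicate 3 was high in Ifit1 (184 against 78.4 to 98.1), Rsad2 (443 against 157 to 210.4) and Stat2 (144 against 49.0 to 55.5). In the same group, Oas1a was 8.87 in replicate 2 (others 0 to 2.34) and Usp18 was 5.67 in replicate 4 (others 2.42 to 3.25). Parp14 at 22 °C was 37.9 in replicate 1 at 0 h (others 15.5 to 19.2) and 26.0 in replicate 2 at 24 h (others 15.3 to 18.1). Xaf1 was 48.8 in replicate 4 at 12 h at 30 °C (others 39.1 to 39.8).

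The response differed between temperatures by an interaction test in 12 cases. At 12 h the change in Ifit2 since 0 h differed by -3.32 (log2, 30 °C minus 22 °C). At 24 h the differences were -2.76 for Xaf1, -2.47 for Rsad2, -2.09 for Ifit2, -1.74 for Usp18, -1.55 for Isg15, -1.46 for Irf7, -1.42 for Herc6 and -0.89 for Bst2. The step from 12 to 24 h differed by -1.88 for Zbp1, by -1.41 for Xaf1 and by 1.65 for Ifih1.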

How the results depend on the processing

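For the member calls that passed in the main fit, no direction reversed under any alternative run. Such a call was kept in 4963 checks and lost in 212. Members that did not pass were not checked for direction. Counts of changed members moved by over 1.5 times in these cases, and the cause was not tested. At 24 h against 0 h at 22 °C, fitting only the groups compared gave 11 in place of 17. The 12 h temperature difference gave 13 with array weights in place of 6. The 12 h interaction, 1 member, became 2 with the column named for TPM, 2 with a pseudocount of 5, 2 with a mean of at least 20, 3 with array weights, 5 with the replicate block, and 0 with no filter or only the groups compared. The 24 h interaction fell from 8 to 5 with only the groups compared. The 4 to 12 h step interaction, 0 members, became 1 with a pseudocount of 5 and 5 with array weights. The 12 to 24 h step interaction, 3 members, became 5 with the column named for TPM or a pseudocount of 5, and 1 with no filter or only the groups compared. Leaving out 1 library gave 4 to 12 members for the 12 h temperature difference (without 22 °C replicates 2 and 5), 8 to 13 for that at 24 h, 0 to 5 for the 12 h interaction, 5 to 9 for the 24 h interaction, and 0 to 5 and 2 to 5 for the step interactions. The 12 h interaction was 0 without 22 °C replicate 2 or 30 °C replicate 1, 5 without 22 °C replicate 5 and 2 without the 30 °C 0 h replicate 1; the step interactions reached 5 without the 22 °C 12 h replicate 5 and the 22 °C 24 h replicate 5. At 4 h the counts were 34 to 34 and 33 to 34. Same-numbered samples of both temperatures did not deviate together (17 pairs, correlation -0.0844 to 0.0667). This gave no sign of pairing by number but cannot exclude it, since so few samples per group were compared. At 12 h the numbers in titles and descriptions also differ for some 30 °C samples. The replicate block gave 8 and 11 members for the 12 and 24 h temperature differences. Upper-quartile rescaling shifted the median of all genes by up to 0.24, in the step from 4 to 12 h at 30 °C. Depth limits Ifit2, Mx1, Usp18 and Oas1a, among others, at 0 and 24 h, near 3 reads. Xaf1 at 0 h at 22 °C (1.85 to 3.71) and Herc6 at 24 h at 30 °C (2.38 to 4.53) were also near that level. Oas1g was under it in every 30 °C library at 0 h.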
